A study of Homo sapiens with 12 samples.

Results

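A set of 9 genes of mitophagy and autophagy was followed through 12 RNA-seq libraries of AsPC-1, an established human pancreatic cancer cell line. They are the mitochondrial receptors BNIP3, BNIP3L and FUNDC1, the mitochondrial kinase PINK1, the cargo receptor SQSTM1, the ATG8 family members MAP1LC3B and GABARAPL1, and the initiation factors ULK1 and BECN1. The genes were taken as a fixed list by symbol, chosen with earlier results of these data known. All 9 had an identifier among the 57820 in the count files. Of these 9, 8 passed the filter on low counts that left 16999 genes for testing, and BNIP3 did not. The study crossed oxygen with an siRNA against ARNT, which encodes the partner shared by the oxygen-regulated HIF subunits and the aryl hydrocarbon receptor. The 4 groups of 3 replicates (A, B and C) were normoxia siControl (21% O2, scrambled siRNA), normoxia siARNT (21% O2, ARNT siRNA), hypoxia siControl (1% O2 for 24 h, scrambled siRNA) and hypoxia siARNT (1% O2 for 24 h, ARNT siRNA). RNA of every group was taken 48 h after transfection with Lipofectamine RNAiMAX, and cells were divided the day after transfection to be kept at 1 of the 2 oxygen levels. The model is thus 1 cell line with a transient knockdown.

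Mitophagy is the removal of mitochondria by autophagy. In macroautophagy the ULK1 kinase complex starts a membrane, the lipid kinase complex that holds BECN1 marks it, ATG8 proteins such as LC3B and GABARAPL1 are coupled to its lipids, and the closed autophagosome fuses with lysosomes. Receptors join cargo to the ATG8 proteins: SQSTM1 (p62) binds ubiquitinated cargo, while BNIP3, BNIP3L (NIX) and FUNDC1 sit in the outer mitochondrial membrane and bind ATG8 proteins directly. PINK1 accumulates on damaged mitochondria and recruits the ubiquitin ligase parkin. BNIP3 and BNIP3L are known HIF target genes, and loss of BNIP3 expression has been described in pancreatic cancer.

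HIF dimers bind a core motif whose letters are ACGTG or GCGTG, read on either strand (CACGT or CACGC on the other). A RefSeq promoter window (GRCh38.p14, 250 bases before to 50 after the start) was found for 7 of the 9 genes, BNIP3L and PINK1 being the others. The motif occurred in 48.4% of all 35116 windows of this length, and the 6-letter palindrome CACGTG, which overlaps it, in 7.3%. The 250 bases before the start are shown for BNIP3, the gene with almost no reads, and for ULK1, the initiation kinase that rose in hypoxia, 5′ to 3′ on each gene's own strand with the motif in capitals.
BNIP3, chr10:131981924-131982173, minus strand: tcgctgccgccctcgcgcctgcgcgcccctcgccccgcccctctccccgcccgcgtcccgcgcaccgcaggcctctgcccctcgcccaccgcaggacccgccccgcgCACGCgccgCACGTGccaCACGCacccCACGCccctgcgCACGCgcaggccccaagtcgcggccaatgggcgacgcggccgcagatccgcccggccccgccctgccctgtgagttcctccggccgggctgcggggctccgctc
ULK1, chr12:131894372-131894621, plus strand: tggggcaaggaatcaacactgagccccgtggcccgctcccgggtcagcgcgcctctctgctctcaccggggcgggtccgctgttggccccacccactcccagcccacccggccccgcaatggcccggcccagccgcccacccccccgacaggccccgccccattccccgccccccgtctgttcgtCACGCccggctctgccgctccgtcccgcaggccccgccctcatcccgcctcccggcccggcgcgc
The BNIP3 window held 5 separate stretches of the motif, 1 of them CACGTG, and 5 or more stretches were present in 0.95% of all windows. ULK1 held 1 stretch and MAP1LC3B held 4. FUNDC1, GABARAPL1, BECN1 and each of the 3 windows of SQSTM1 held none. These are matches of letters and not measured binding.

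The totals of gene counts ran from 38.53 to 84.34 M per library. ARNT, the siRNA target, lay between 60.7 and 72.2 CPM (TMM-scaled counts per M) in the siControl libraries and between 12.8 and 16.0 CPM in the siARNT libraries. The HIF target CA9 rose with hypoxia by 3.27 on the log2 scale in siControl (edgeR, adjusted p 4.4e-07) and had a value of 0.24 in siARNT (adjusted p 0.414), and EGLN3 rose by 3.29 and 0.71. All 8 epithelial markers listed were detected above 1 CPM in at least 1 library, KRT7 being the lowest at 1.10 to 4.01 CPM. The 4 acinar and endocrine markers (PRSS1, CPA1, INS, GCG) and the 4 fibroblast and endothelial markers with an identifier stayed under 1 CPM in every library, and of the 3 immune markers only CD68 passed it, at up to 1.02. Libraries differed in how counts depended on gene GC content, with the steepest slopes in normoxia siARNT B (0.392 on the log2 scale per 10 points of GC) and hypoxia siARNT C (0.221) and the lowest in normoxia siControl A (-0.193). This can touch genes at either end of GC content. ULK1 (64.2% GC in its longest transcript), SQSTM1 (58.0%) and PINK1 (52.5%) lie highest, and a fit with GC offsets is given beside them. BNIP3L (38.9%) and FUNDC1 (40.7%) lie lowest, and for siARNT their range over alternatives that include GC offsets is given. Changes in bulk RNA cannot be told apart from changes in the number of cells that hold the RNA.

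**Figure D1:**
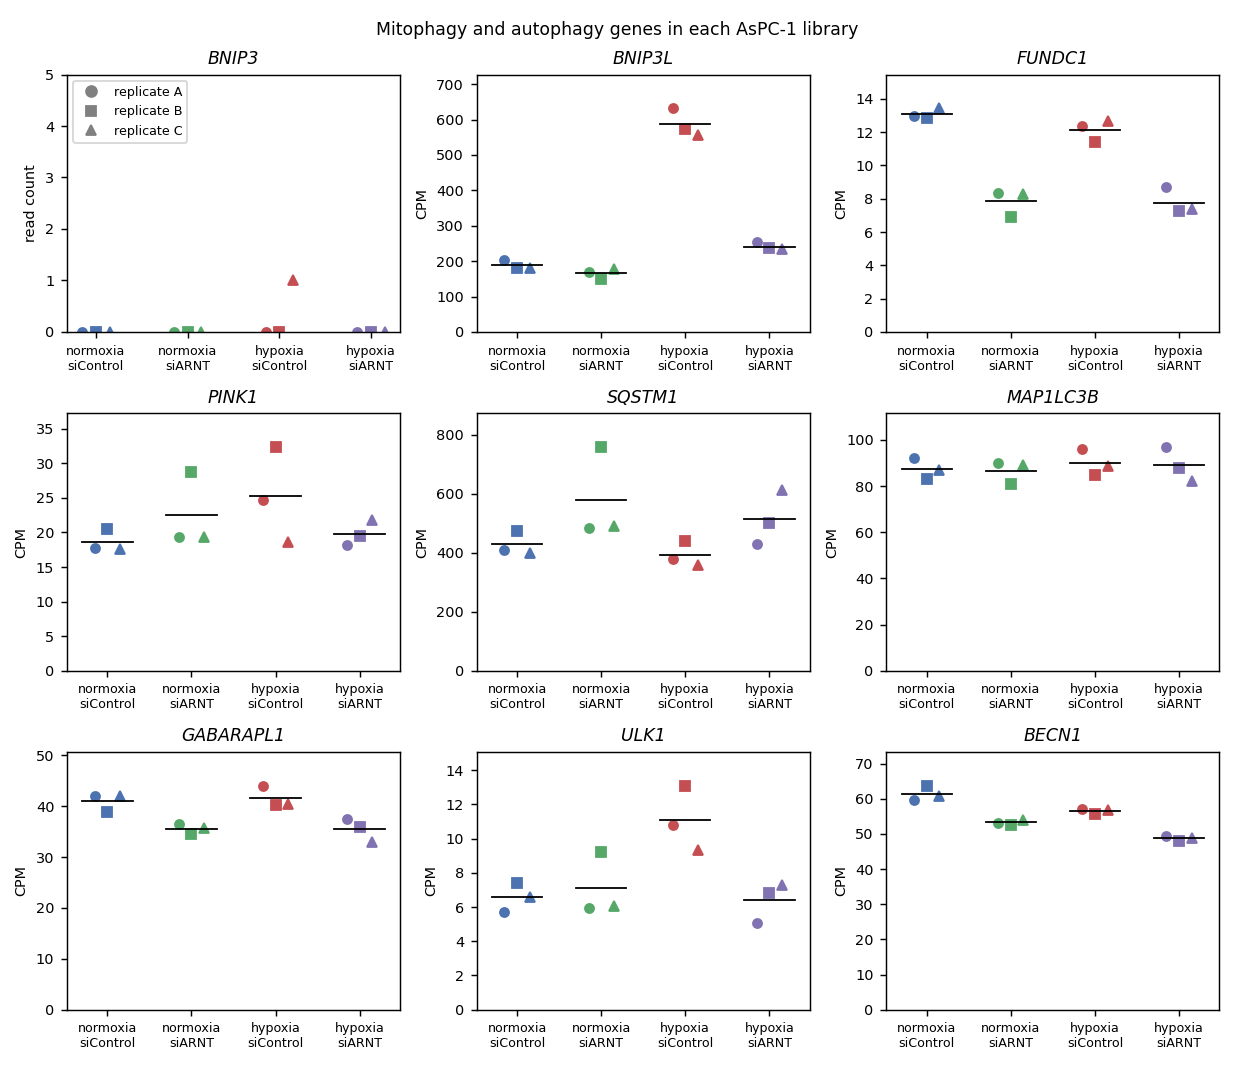
Level of each of the 9 genes in each library, as raw read count for BNIP3 and as CPM for the other 8; the horizontal axis gives the 4 groups, symbols mark replicates A, B and C, and black lines mark group means. BNIP3 held 1 read in 1 library, BNIP3L was highest in the 3 hypoxia siControl libraries (555 to 632 CPM), and FUNDC1 was lower in the siARNT than in the siControl libraries at both oxygen levels.

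Per kilobase of exon, the 9 genes spanned a wide range of levels. In normoxia siControl SQSTM1 stood highest at 55.9 ± 5.32 CPM per kb (SD, n = 3). BNIP3L followed at 43.6 ± 2.95 and MAP1LC3B at 16.4 ± 0.85. GABARAPL1 (9.53 to 10.3 CPM per kb over the 3 libraries), BECN1 (9.29 to 9.93) and FUNDC1 (9.18 to 9.61) overlapped, so their order is not resolved. PINK1 stood at 3.86 ± 0.343 CPM per kb and ULK1 at 0.863 ± 0.112, and BNIP3 was at 0. The first 2 places changed with hypoxia: in hypoxia siControl BNIP3L reached 136 ± 9.42 CPM per kb and SQSTM1 51.4 ± 5.56. In hypoxia siARNT BNIP3L was at 55.9 ± 2.5 and SQSTM1 at 67.3 ± 12.0, and their ranges overlapped (54.2 to 58.8 and 56.3 to 80.1 CPM per kb).

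BNIP3 (ENSG00000176171.7; GRCh38 chromosome 10, 131966455 to 131982013, minus strand, GENCODE 29) encodes the hypoxia-inducible receptor of the outer mitochondrial membrane. It held 1 read in hypoxia siControl replicate C and 0 reads in each of the other 11 libraries. Over the 666.4 M gene counts of all 12 libraries this is 0.15 read per 100 M (95% exact Clopper-Pearson interval 0.0038 to 0.836, counting error only). A level of 3 reads, the limit that a count of 0 allows, corresponds to 0.0356 to 0.0779 CPM depending on the library. No group difference can be given for BNIP3, since all groups lie at or under that limit. The nearest protein-coding genes on chromosome 10 differed widely in reads per library. On 1 side PPP2R2D held 1231 to 2645, TCERG1L 0 in every library and GLRX3 4831 to 12388. On the other side JAKMIP3 held 51 to 138, DPYSL4 0 to 6 and STK32C 155 to 525. Of the stretches of the longest BNIP3 transcript that are as long as a read, 2.52% occur exactly in another annotated transcript, that of the pseudogene BNIP3P1, which held 0 reads. The pseudogene BNIP3P5 held 3 to 15 reads. No other annotated gene overlaps BNIP3 in GENCODE 29, which may differ from the annotation counted, and no splicing event is listed for it. The counting settings and the DNA of the BNIP3 locus were not examined, and the cause of the missing reads was not tested.

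BNIP3L (ENSG00000104765.10, chromosome 8), the paralogue of BNIP3 and a receptor for mitophagy in maturing red cells, rose with hypoxia and did so less when ARNT was depleted. Replicates A, B and C stood at 203, 181 and 180 CPM in normoxia siControl and at 632, 572 and 555 CPM in hypoxia siControl. With siARNT they stood at 168, 150 and 179 CPM in normoxia and at 253, 236 and 233 CPM in hypoxia. The 3 hypoxia siControl libraries lay above all others, and the 3 hypoxia siARNT libraries lay above both normoxia groups. The rise with hypoxia was 1.64 on the log2 scale in siControl (SE 0.081, edgeR adjusted p 2.21e-07), a 3.12-fold change. In siARNT it was 0.54 (SE 0.079, adjusted p 0.00533), which is 32.9% of the siControl value on the log2 scale. The difference between the rises was itself tested: the interaction was -1.10 (SE 0.112, adjusted p 0.000235). In hypoxia, siARNT lowered BNIP3L by a log2 change of -1.28 (SE 0.08, adjusted p 5.23e-07), to 0.411 of the siControl level. In normoxia the change with siARNT was -0.18 (SE 0.079, adjusted p 0.113), which did not pass the threshold although the groups did not overlap. Over the 21 alternatives, GC offsets among them, that normoxia value ran from -0.24 to -0.03 and was called in none. The smaller rise under siARNT lost its call when only the 2 groups compared were fitted (0.56, adjusted p 0.071). The opposite-strand gene PNMA2 (3694 to 10976 reads) overlaps BNIP3L in GENCODE 29, and whether the counting used strand is not given in the sources used here.

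FUNDC1 (ENSG00000069509.5; chromosome X, 44523639 to 44543001, minus strand) is a mitophagy receptor regulated by phosphorylation under hypoxia. Its RNA did not pass the test for hypoxia but fell with siARNT at both oxygen levels. In normoxia it stood at 13.0, 12.8 and 13.4 CPM in siControl and at 8.35, 6.89 and 8.30 CPM in siARNT. In hypoxia it stood at 12.4, 11.4 and 12.6 CPM in siControl and at 8.69, 7.24 and 7.38 CPM in siARNT. No siARNT library reached any siControl library. The log2 change with siARNT was -0.74 in normoxia (SE 0.103, adjusted p 0.000649) and was -0.64 under hypoxia (SE 0.104, adjusted p 0.000687). Both were called in all 21 alternatives, GC offsets among them, at -0.785 to -0.589 in normoxia and -0.73 to -0.564 under hypoxia. The changes with hypoxia were -0.11 in siControl (adjusted p 0.493, 95% interval -0.33 to 0.12) and -0.01 in siARNT (adjusted p 0.953, interval -0.24 to 0.21). The interaction was 0.09 (adjusted p 0.731, interval -0.23 to 0.41). FUNDC2, a related gene, held 2389 to 5693 reads and shared no read-long stretch with the longest FUNDC1 transcript.

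PINK1 (ENSG00000158828.5; chromosome 1, 20633455 to 20651511, plus strand) passed no test. It stood at 17.8, 20.6 and 17.6 CPM in normoxia siControl and at 24.7, 32.4 and 18.6 CPM in hypoxia siControl. With siARNT it stood at 19.3, 28.7 and 19.4 CPM in normoxia and at 18.2, 19.4 and 21.9 CPM in hypoxia. Hypoxia siControl was the most spread group, and its replicate C lay within the normoxia range. The log2 value for hypoxia in siControl was 0.43 (SE 0.198, adjusted p 0.136) and that in siARNT -0.18 (adjusted p 0.625). The interaction was -0.62 (SE 0.28, adjusted p 0.238). With GC offsets the hypoxia value in siControl was 0.44 and passed the threshold (adjusted p 0.0478), and it also did without hypoxia siControl C (0.61, adjusted p 0.0277). Without that library the siARNT value in hypoxia, -0.35 in the full fit (adjusted p 0.222), was -0.53 (adjusted p 0.0478). PINK1-AS, on the opposite strand, held 128 to 312 reads.

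**Figure D2:**
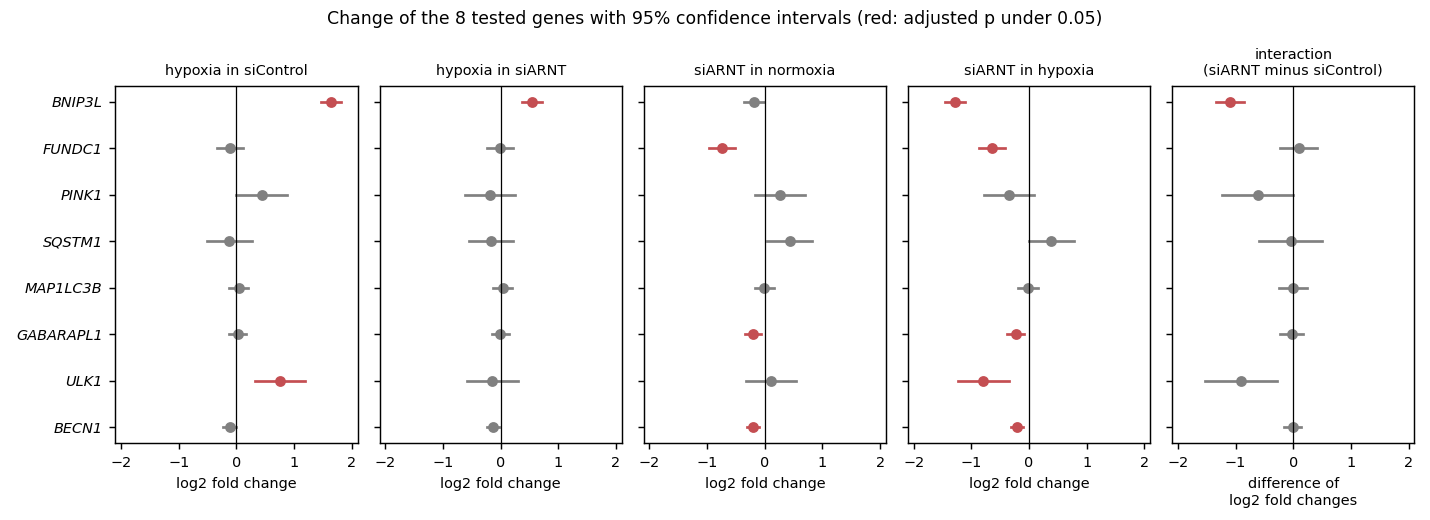
Fitted change of the 8 tested genes in the 5 comparisons; the horizontal axes give the log2 fold change (for the interaction, the siARNT value for hypoxia less the siControl value), points are estimates, bars are 95% confidence intervals, and red marks an adjusted p under 0.05. BNIP3L is the gene called in the interaction, and FUNDC1, GABARAPL1 and BECN1 are called for siARNT at both oxygen levels.

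ULK1 (ENSG00000177169.5; chromosome 12, 131894651 to 131923167, plus strand), the kinase that starts autophagosome formation, rose with hypoxia in siControl. Replicates A, B and C stood at 5.70, 7.39 and 6.61 CPM in normoxia siControl and at 10.8, 13.1 and 9.36 CPM in hypoxia siControl. With siARNT they stood at 5.94, 9.23 and 6.08 CPM in normoxia and at 5.08, 6.84 and 7.30 CPM in hypoxia. The 3 hypoxia siControl libraries lay above all others. The rise was 0.76 on the log2 scale (SE 0.2, edgeR adjusted p 0.0152). In siARNT the hypoxia value was -0.15 (SE 0.201, adjusted p 0.701). In hypoxia, siARNT lowered ULK1 by -0.79 (SE 0.201, adjusted p 0.011). The interaction was -0.90 (SE 0.283, adjusted p 0.0966) and did not pass the threshold. It passed with DESeq2 (adjusted p 0.0278) and was -0.33 with GC offsets, which also gave a smaller rise with hypoxia in siControl (0.48, still called). The rise in hypoxia was no longer called without hypoxia siControl B (0.64, adjusted p 0.0612) or without normoxia siControl A (0.67, adjusted p 0.0652). In normoxia the value with siARNT was 0.11 (adjusted p 0.71), and with GC offsets it was -0.58 (adjusted p 0.000861), so that its direction depends on the treatment of GC content.

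BECN1 (ENSG00000126581.8; chromosome 17, 42810134 to 42833350, minus strand), the scaffold of the lipid kinase complex, fell slightly with siARNT. It stood at 59.6, 63.7 and 61.0 CPM in normoxia siControl and at 53.1, 52.6 and 54.1 CPM in normoxia siARNT. In hypoxia it stood at 57.2, 55.6 and 56.9 CPM in siControl and at 49.3, 48.1 and 48.8 CPM in siARNT. The groups did not overlap, and their order from high to low was normoxia siControl, hypoxia siControl, normoxia siARNT and hypoxia siARNT. The log2 change with siARNT was -0.20 in normoxia (SE 0.049, adjusted p 0.0138) and was -0.21 under hypoxia (SE 0.049, adjusted p 0.00599), with an interaction of -0.01 (adjusted p 0.941, interval -0.16 to 0.14). The hypoxia values were -0.12 in siControl (adjusted p 0.0992) and -0.13 in siARNT (adjusted p 0.159). The normoxia call was lost with GC offsets (-0.11, adjusted p 0.0889), with no filter on low counts (-0.19, adjusted p 0.219) and without normoxia siControl B (-0.18, adjusted p 0.0634). The hypoxia call was lost with total count scaling (-0.13, adjusted p 0.0547) and with no filter (-0.22, adjusted p 0.0999). Hypoxia itself was called in siARNT with GC offsets (-0.15, adjusted p 0.0277) and in siControl with total count scaling (-0.14, adjusted p 0.0467). The opposite-strand gene PSME3 (4578 to 14461 reads) overlaps BECN1 in GENCODE 29.

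The ATG8 family members showed small or no changes. MAP1LC3B (ENSG00000140941.8; chromosome 16, 87383995 to 87404779, plus strand), which encodes LC3B, the usual marker protein of autophagosomes, was called in none of the 5 comparisons. Its normoxia libraries ran from 83.0 to 92.0 CPM with siControl and from 81.0 to 90.2 CPM with siARNT. Its hypoxia libraries ran from 84.7 to 96.1 CPM and from 82.1 to 96.9 CPM. All 4 groups overlapped. The hypoxia value in siControl was 0.04 on the log2 scale with a 95% interval of -0.13 to 0.21, and that in siARNT 0.04 with an interval of -0.13 to 0.20. The values with siARNT were -0.01 in normoxia (interval -0.18 to 0.16) and -0.02 in hypoxia (interval -0.18 to 0.15). Of its read-long stretches 3.99% occur in MAP1LC3B2, which held 2 to 16 reads.

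GABARAPL1 (ENSG00000139112.6; chromosome 12, 10212458 to 10223130, plus strand) was slightly lower with siARNT. In normoxia it stood at 41.9, 38.9 and 42.1 CPM with siControl and at 36.5, 34.6 and 35.8 CPM with siARNT. In hypoxia the values were 44.0, 40.3 and 40.5 CPM with siControl and 37.4, 36.0 and 32.9 CPM with siARNT. Every siARNT library lay under every siControl library. The log2 change with siARNT was -0.20 in normoxia (SE 0.066, adjusted p 0.0491) and was -0.23 under hypoxia (SE 0.066, adjusted p 0.0208). These calls are close to the threshold: the normoxia call held in 9 of 21 alternatives and the hypoxia call in 14 of 21, with adjusted p values of up to 0.274 and 0.104. In normoxia the call was lost without any 1 of the 6 libraries compared (adjusted p 0.0615 to 0.146), and in hypoxia without hypoxia siControl A (0.101), hypoxia siARNT B (0.0556) or hypoxia siARNT C (0.0741). Hypoxia values were 0.02 in siControl (adjusted p 0.848) and -0.01 in siARNT (adjusted p 0.968). The near copy GABARAPL3 held 0 to 5 reads.

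**Figure D3:**
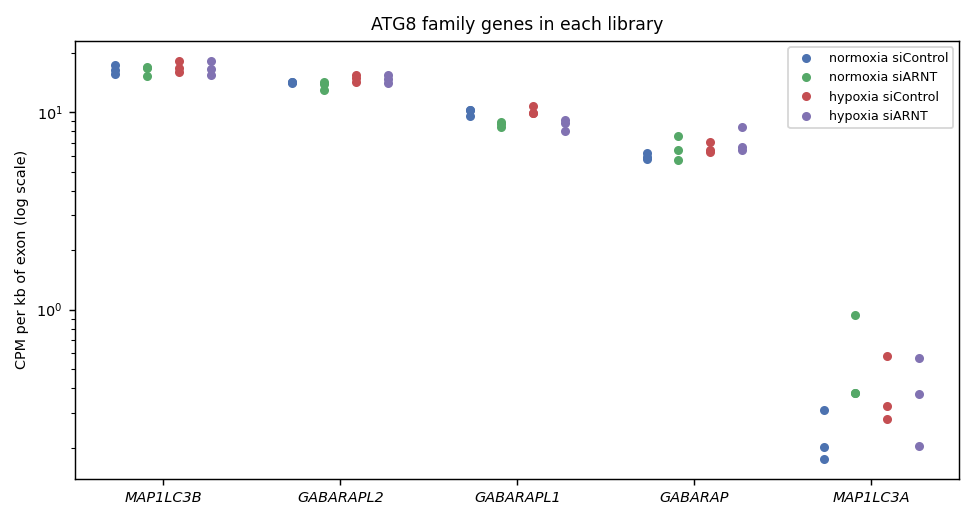
Levels of the 5 ATG8 family genes that passed the filter on low counts, in CPM per kb of exon on a log axis; each point is a library and colours give the 4 groups. MAP1LC3B, GABARAPL2, GABARAPL1 and GABARAP lie within 5.7 to 18.3 CPM per kb in every library, and MAP1LC3A lies below 1.

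Within the family, MAP1LC3B had the highest level per kilobase in normoxia siControl (16.4 ± 0.85 CPM per kb), followed by GABARAPL2 (14.2 ± 0.0429), GABARAPL1 (10.0 ± 0.436), GABARAP (5.97 ± 0.226) and MAP1LC3A (0.229 ± 0.0719). The ranges of neighbours in this order did not overlap. MAP1LC3C held 0 to 4 reads and was not tested. None of the 3 other tested members GABARAPL2, GABARAP and MAP1LC3A was called in any comparison.

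SQSTM1 (ENSG00000161011.15; chromosome 5, 179806398 to 179838078, plus strand), the p62 cargo receptor that is itself degraded by autophagy, was called in no comparison. It stood at 409, 475 and 401 CPM in normoxia siControl and at 485, 758 and 492 CPM in normoxia siARNT. In hypoxia it stood at 379, 441 and 359 CPM in siControl and at 431, 500 and 613 CPM in siARNT. The highest library of each siARNT group was the one with the steepest GC slope. The log2 value with siARNT was 0.43 in normoxia (SE 0.177, adjusted p 0.0967) and was 0.39 under hypoxia (SE 0.177, adjusted p 0.125). With GC offsets the normoxia value was 0.06 (adjusted p 0.397) and the hypoxia value 0.32 (adjusted p 8.06e-07). With these offsets SQSTM1 was also called for hypoxia in siControl (-0.24, adjusted p 1.84e-05; -0.12 without them, adjusted p 0.662) and in the interaction (0.26, adjusted p 0.00102; -0.04 without them). MGAT4B (8609 to 22110 reads) and MRNIP (693 to 1432 reads) overlap SQSTM1 on the opposite strand.

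**Figure D4:**
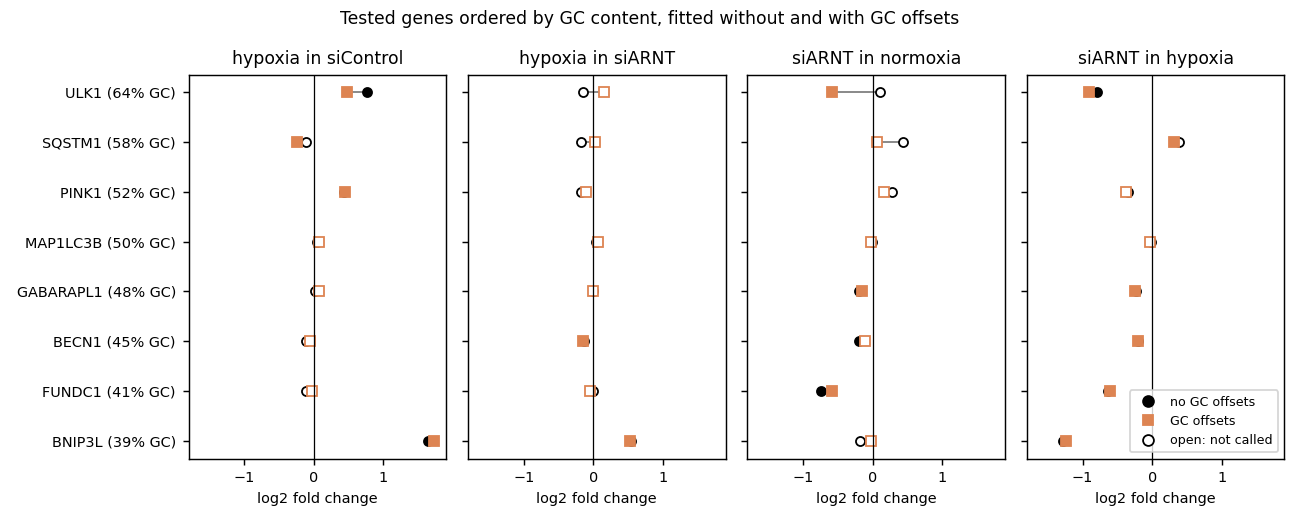
Log2 fold change of the 8 tested genes in 4 comparisons, fitted without GC offsets (circles) and with them (squares). Genes are ordered by the GC content of their longest transcript, and filled symbols passed the threshold. BNIP3L moved little in hypoxia, whereas ULK1 changed sign for siARNT in normoxia, from 0.11 to -0.58.

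Counted over the 8 tested genes, 2 were called for hypoxia in siControl, BNIP3L and ULK1, both higher, against 25.3% of all tested genes called, 10.4% higher and 14.9% lower. For hypoxia in siARNT 1 was called, BNIP3L, higher (4.09% of all genes called, 2.21% higher and 1.89% lower). With siARNT in normoxia FUNDC1, BECN1 and GABARAPL1 were called, all 3 lower (20.2% of all genes called, 9.42% higher and 10.8% lower). With siARNT in hypoxia 5 were called, all lower, namely BNIP3L, ULK1, FUNDC1, BECN1 and GABARAPL1 (29.1% of all genes called, 14.4% higher and 14.7% lower). In the interaction 1 was called, BNIP3L, lower (4.69% of all genes called, 2.49% higher and 2.19% lower). The median log2 change of the 8 genes was 0.03 for hypoxia in siControl and -0.29 for siARNT in hypoxia, beside 0.02 in both comparisons over all tested genes. Groups did not overlap for 4 of the 8 genes for hypoxia in siControl (46.8% of all genes), for 2 in hypoxia in siARNT (22.2%), and for 5 with siARNT at each oxygen level (46.5% in normoxia and 40.3% in hypoxia). The comparisons share groups and are not independent of each other. Since the list was chosen with earlier results of these data known, its counts and medians are a description and not a test. With GC offsets 4 of the 8 genes were called for hypoxia in siControl, 2 for hypoxia in siARNT and 2 in the interaction, beside 42.6%, 21.6% and 18.5% of all genes. With siARNT they gave 3 calls in normoxia (32.5% of all genes) and 6 in hypoxia (46.1%).

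The genes whose levels ran most alike were taken as those with the highest Pearson r of log2(CPM + 1) over the 12 libraries, among the 9855 tested genes that averaged 5 CPM or more. For BNIP3L these were SCIN, an actin-severing protein (r 0.995), P4HA1, a collagen prolyl hydroxylase subunit (r 0.994), and ESYT2, a membrane contact protein (r 0.994). P4HA1 had means of 125.2 CPM in normoxia and 592 in hypoxia with siControl, and of 94.5 and 181 CPM with siARNT. For ULK1 they were SCARB1, the receptor for high-density lipoprotein (r 0.986), SH3D21 (r 0.980) and RETSAT, the retinol saturase (r 0.980). SCARB1 had means of 43.8 and 95.3 CPM with siControl, and of 50.8 and 42.6 CPM with siARNT. SH3D21 had 37.0 and 58.1, then 39.0 and 38.1 CPM, and RETSAT 64.6 and 76.2, then 65.9 and 62.0 CPM. The edgeR interaction was called for SCARB1 (adjusted p 0.0341) but not for SH3D21 (0.0774) or RETSAT (0.146). The r values describe libraries that share 4 groups and carry no test. They were taken without GC offsets, so the GC slopes of the libraries enter them too.

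The other genes of the pathway were taken from 4 lists with 68 genes, of which 65 were tested. These lists too were chosen with earlier results of these data known, and their counts are a description. For hypoxia in siControl 16 of the 65 were called, 4 higher and 12 lower, beside 25.3% of all tested genes (10.4% higher, 14.9% lower). For hypoxia in siARNT 2 were called, 1 in each direction (4.09% of all genes). With siARNT 14 were called in normoxia (6 higher, 8 lower; 20.2% of all genes) and 14 in hypoxia (8 higher, 6 lower; 29.1%), and in the interaction 1 was called (4.69%). The median log2 changes of the 65 were -0.03 for hypoxia in siControl and 0.02 for siARNT in hypoxia, against 0.02 in both for all genes. With GC offsets 36 of the 65 were called for hypoxia in siControl (17 higher, 19 lower), beside 42.6% of all genes with these offsets. For siARNT they gave 25 calls in normoxia (13 higher, 12 lower), beside 32.5%, and 33 in hypoxia (17 higher, 16 lower), beside 46.1%. Both the counts and the split by direction depend on that choice.

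**Figure D5:**
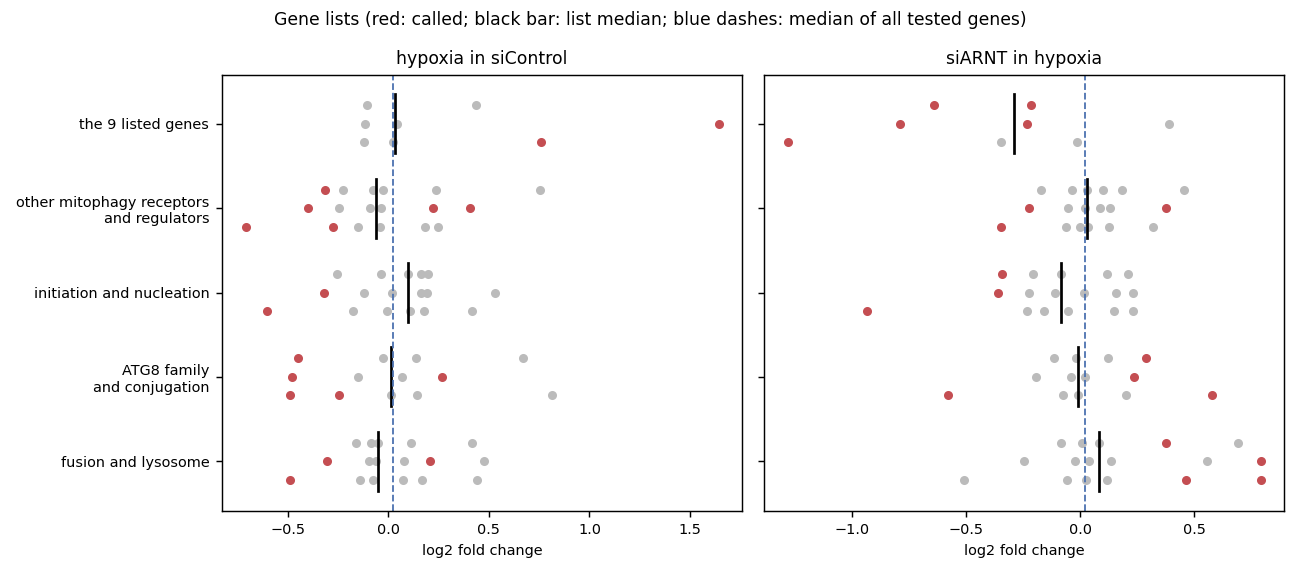
Log2 fold change of each tested gene in the list of 9 and in the 4 other pathway lists, for hypoxia in siControl and siARNT in hypoxia; red points were called, black bars are list medians and the blue dashed line is the median of all tested genes. BNIP3L is the rightmost point for hypoxia (1.64) and the leftmost for siARNT (-1.28).

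Among 18 other mitophagy receptors and regulators, 6 were called for hypoxia in siControl, 2 higher and 4 lower, beside 25.3% of all genes. With GC offsets 10 were called, 3 higher and 7 lower, beside 42.6% of all genes. The cargo receptor OPTN rose from 263 ± 3.2 to 348 ± 26.4 CPM (SD, n = 3), by 0.40 on the log2 scale (SE 0.066, adjusted p 0.000924) and PGAM5, a mitochondrial phosphatase that acts on FUNDC1, fell from 36.1 ± 1.31 to 22.1 ± 1.85 CPM, a log2 change of -0.71 (SE 0.123, adjusted p 0.00133). With siARNT in hypoxia 3 of the 18 were called (29.1% of all genes), and 5 with GC offsets (46.1%). CALCOCO2 (NDP52), another cargo receptor, was higher by 0.38 (SE 0.091, adjusted p 0.00836), and OPTN was lower, at -0.35 (SE 0.066, adjusted p 0.00197). Among 17 initiation and nucleation genes, 2 were called for hypoxia in siControl and 3 for siARNT in hypoxia, all lower. Over all genes 25.3% were called in the first (14.9% lower) and 29.1% in the second (14.7% lower). With GC offsets 11 were called for hypoxia in siControl, 7 higher and 4 lower, beside 42.6% of all genes. For siARNT in hypoxia the offsets gave 11 calls, 2 higher and 9 lower, beside 46.1%. The single direction thus rests on the fit without offsets. ULK2, the paralogue of ULK1, fell by 0.60 with hypoxia in siControl (SE 0.118, adjusted p 0.00279), the direction opposite to that of ULK1. WIPI2, which binds the lipid made by the BECN1 complex, stood at 62.4 ± 4.41 CPM in hypoxia siControl and 32.6 ± 2.75 in hypoxia siARNT, a log2 change of -0.94 (SE 0.107, adjusted p 5.41e-05), and changed by -0.62 with siARNT in normoxia (adjusted p 0.00226).

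Among 13 tested genes of the ATG8 family and its conjugation, 5 were called for hypoxia in siControl, 1 higher and 4 lower (25.3% of all genes). With GC offsets 9 were called, 4 higher and 5 lower (42.6% of all genes). ATG12 rose by 0.27 (SE 0.082, adjusted p 0.0325) and ATG4C, an ATG8 protease, fell by 0.49 (SE 0.115, adjusted p 0.00864). With siARNT in hypoxia 4 were called, 3 higher and 1 lower (29.1% of all genes). With GC offsets 6 were called, 4 higher and 2 lower (46.1% of all genes). The lower one without offsets was ATG16L1, the scaffold of ATG8 lipidation, at -0.58 (SE 0.059, adjusted p 2.18e-05). The protease ATG4A was the gene of the 65 called in the interaction. It stood at 17.5, 15.0 and 17.6 CPM in normoxia siControl and at 11.8, 11.9 and 13.1 CPM in hypoxia siControl, a fall of 0.45 on the log2 scale (SE 0.096, adjusted p 0.00471). With siARNT it stood at 17.4, 15.6 and 16.9 CPM in normoxia and at 20.2, 17.3 and 17.2 CPM in hypoxia. The 3 hypoxia siControl libraries lay below all others, opposite to BNIP3L. The interaction was 0.59 (SE 0.135, adjusted p 0.0325), was called in 11 of 21 alternatives, and had an adjusted p of up to 0.106.

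Among 17 tested genes of fusion and the lysosome, 3 were called for hypoxia in siControl, 1 higher and 2 lower (25.3% of all genes). With GC offsets 6 were called, 3 in each direction (42.6% of all genes). The SNARE VAMP8 rose by 0.21 (SE 0.064, adjusted p 0.0317) and the lysosomal protease CTSL fell by 0.49 (SE 0.067, adjusted p 0.000289). With siARNT in hypoxia 4 were called, all higher (29.1% of all genes called, 14.4% higher). With GC offsets 11 were called, 8 higher and 3 lower (46.1% of all genes called). The lysosomal membrane protein LAMP1 rose from 68.1 ± 7.73 to 118 ± 3.11 CPM, or 0.79 (SE 0.085, adjusted p 3.28e-05). The lysosomal protease CTSB, named because its change had the same value, rose by 0.79 too (SE 0.093, adjusted p 6.49e-05), and their order is not resolved. With siARNT in normoxia 7 were called, 6 higher and 1 lower, beside 20.2% of all genes called and 9.42% higher. With GC offsets the count was the same, but 32.5% of all genes were then called. The median log2 change of the 17 was 0.21 without offsets and 0.03 with them. LAMP1 was higher by 0.52 (adjusted p 0.0016).

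Splicing of the 9 genes was read from the deposited splice event files, which list 40 events in 5 of them (SQSTM1, MAP1LC3B, GABARAPL1, BECN1 and PINK1) and none in BNIP3, BNIP3L, FUNDC1 and ULK1. Of these, 9 events in 4 genes passed the limits on reads and on mean inclusion and were tested. No event of the 9 was called in any comparison (limma, lowest adjusted p 0.606, and 0.295 over the alternatives), and none had an unadjusted p under 0.05 (lowest 0.0764). Over all 15282 events tested, 0.0393% were called for hypoxia in siControl, 0.0393% for hypoxia in siARNT, 0.373% for siARNT in normoxia, 0.661% for siARNT in hypoxia and 0.0196% in the interaction. The event with the most reads in each gene is described here, at coordinates as deposited, in a build that is not named with them. In each of the 4 genes these coordinates lie outside the GRCh38 gene location given above. They are therefore not GRCh38 positions, although the processing notes name GRCh38.p10.

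In MAP1LC3B, acceptors 3 nt apart (87436529 and 87436532 on chromosome 16) were used, with 1 form at 93.8 ± 0.994% (siControl) and 94.2 ± 0.746% (siARNT) in normoxia and at 93.2 ± 1.05% (siControl) and 93.5 ± 1.44% (siARNT) in hypoxia (SD, n = 3), from 247 to 522 reads per library. In BECN1 an exon of 143 nt (chromosome 17, 40963673 to 40963815) was included at 90.5 ± 2.35%, 88.0 ± 0.743%, 93.7 ± 1.53% and 91.3 ± 3.35% in the same order of groups, from 138 to 314 reads. In GABARAPL1 a donor choice (10365818 or 10367378 on chromosome 12) had 1 form at 85.1 ± 1.95%, 87.0 ± 4.13%, 86.6 ± 3.88% and 88.0 ± 4.2%, from 51 to 143 reads. In SQSTM1 a pair of exons (chromosome 5, 179250858 to 179251087 and 179251182 to 179251323) was included at 92.4 ± 1.72%, 93.3 ± 1.75%, 92.3 ± 1.92% and 93.2 ± 3.14%, from 111 to 758 reads. The group ranges of MAP1LC3B, GABARAPL1 and SQSTM1 overlapped throughout. For BECN1 the hypoxia siControl libraries (92.02 to 95.03%) lay above normoxia siARNT (87.2 to 88.6%) and overlapped normoxia siControl (88.0 to 92.5%). Hypoxia siControl and normoxia siARNT differ in both oxygen and siRNA, and that pair was not among the comparisons tested.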

How the data were processed

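Poly(A) RNA of 12 AsPC-1 samples was sequenced with a stranded TruSeq kit, per the labels' protocols. The submitters' processing notes name Trimmomatic, STAR 2.4.2a and GRCh38.p10, and the counter's annotation and strand setting are not given in the sources used here. The authors deposited whole-number counts of reads per gene identifier, whose 5 summary lines that name no gene (22.71 to 25.2% of a library) were left out. They also deposited splice events with junction counts, the coverage signal of retained introns and the inclusion level as a fraction. A second deposited count table with identical values was not used.

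The test on counts was the robust quasi-likelihood F test of edgeR 4.0.16 in R 4.3.3, after filterByExpr and TMM scaling. It was fitted to all 12 libraries with a mean for each group. P-values were adjusted by Benjamini-Hochberg over 16999 genes within each of 5 comparisons, and the threshold for a call was an adjusted p of 0.05. The interaction subtracts the siControl change with hypoxia from the siARNT change. Symbols, locations, exon lengths and GC content came from GENCODE 29 (GRCh38), whose gene identifier versions differ in part from those in the count files, so lengths, overlaps and shared stretches may differ from the annotation counted; GC content is that of the longest transcript, and 97.27% of tested genes had a GC value. Splice events with at least 20 reads in every library and a mean inclusion of 5 to 95% were tested with limma 3.58.1 on log2 ratios with a pseudocount of 0.5. The reads of an event are inclusion plus exclusion, averaged over junctions where a form has several. For retained introns the inclusion is the intron coverage. Alternatives were DESeq2 1.42.0, other scalings, no filter, GC offsets, replicate blocks and leaving out each library. The tests were tried on simulated data in which libraries did not differ in GC dependence, and that trial is not used as support here.

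Over the 12 pairs of replicates, counts differed by more than sampling noise (chi-square over its degrees of freedom 4.25 to 89.13). They are triplicate wells of 1 line, so p-values measure the spread between wells. Of 18 pairs of libraries with the same letter in different groups, 12 had deviations correlated above 0.1. Their r ran from -0.75 to 0.809, and 5 of the 12 libraries were best correlated with 1 of their own letter. Cells were divided after transfection, so libraries of the same siRNA and letter may share a transfection, and the hypoxia comparisons may be paired. Of 6 such pairs, 4 were correlated above 0.1, with r from -0.75 to 0.809. The letters do not say whether replicates of an siRNA came from separate transfections. Because of this mixed pattern of r the letters were not taken to pair the samples in the main fit. The exact interval and floor for BNIP3 cover counting error only, whereas intervals of fold changes come from the edgeR fit and include the spread between wells.

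The genes and lists were chosen with earlier results of these data known. Named genes are the 9 listed genes, every other pathway gene called in the interaction, the largest called rise and fall of each list for hypoxia in siControl and siARNT in hypoxia, CA9 and EGLN3, near copies with any count, and the 3 genes most alike in pattern to BNIP3L and ULK1. Genes that overlap or neighbour a listed gene were named from the annotation, and GABARAP, GABARAPL2, MAP1LC3A and MAP1LC3C as family members.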

Additional observations from a re-analysis of the deposited data

Results flagged for a closer look

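Among the 9 genes, BNIP3L was picked out because its hypoxia change differed between siControl and siARNT by a test of the difference itself (-1.10 on the log2 scale, SE 0.112, edgeR interaction, adjusted p 0.000235), and it was called in all 21 alternatives run for that comparison and passed a log2 fold threshold of 1 as well. The same test picked out ATG4A in the opposite direction (0.59, adjusted p 0.0325), with a call in 11 of 21 alternatives. The HIF target checks CA9 (-3.02, adjusted p 3.42e-05) and EGLN3 (-2.57, adjusted p 8.09e-07) differed in the same direction as BNIP3L, by larger amounts. In normoxia CA9 averaged 12.0 CPM with siControl and 22.4 with siARNT, so its value also holds a higher normoxia level with siARNT. EGLN3 averaged 12.4 and 12.3 CPM there, and BNIP3L 188 and 166.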

How the results depend on the processing

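With GC offsets, 4, 2 and 2 of the 8 tested genes were called for hypoxia in siControl, hypoxia in siARNT and the interaction (2, 1 and 1 without), and the same numbers with GC offsets and the letter as a replicate block. For siARNT in hypoxia 6 were called with GC offsets and 7 with the block added, where PINK1 gained a call (-0.35, adjusted p 0.0351). The letter as a replicate block alone gave 2 calls in the interaction (BNIP3L and ULK1), as did DESeq2 and no filter on low counts, and it changed no other count for these genes. Only the groups compared gave 0 calls for hypoxia in siARNT. No filter on low counts gave 1 call for siARNT in normoxia and 3 for siARNT in hypoxia, where total count scaling gave 3 too. A fold threshold of 1 on the log2 scale left 1, 0, 0, 1 and 1 calls in the 5 comparisons. Leaving out each library gave 1 to 3 calls for hypoxia in siControl, 1 to 3 for siARNT in normoxia and 4 to 6 for siARNT in hypoxia, with 1 throughout in the other comparisons; the lowest counts came without normoxia siControl A or hypoxia siControl B and without normoxia siControl B. No alternative gave a called splice event in these genes.

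Estimates that changed sign were not called in the fit reported. With GC offsets (and the same with the letter as a replicate block) ULK1 was -0.58 for siARNT in normoxia and 0.15 for hypoxia in siARNT, SQSTM1 was 0.02 for hypoxia in siARNT and 0.26 in the interaction, and FUNDC1 was -0.02 in the interaction. Without the siARNT libraries with the steepest GC slopes, an alternative chosen after seeing the data, ULK1 was -0.13 for siARNT in normoxia, SQSTM1 0.07 in the interaction, GABARAPL1 0.03 for hypoxia in siARNT and 0.02 in the interaction, and MAP1LC3B 0.03 (normoxia) and 0.05 (hypoxia) for siARNT and 0.02 in the interaction. Other scalings, filters and fits moved values near 0 across it by up to 0.06 in size: with total count scaling 0.00, 0.02 and 0.02 for GABARAPL1, 0.01 for FUNDC1, 0.02, 0.06 and 0.04 for MAP1LC3B, 0.01 for SQSTM1 and 0.04 for BECN1; with upper quartile scaling 0.04 for FUNDC1, 0.05 for GABARAPL1, 0.01 for MAP1LC3B and 0.00 for BECN1; and 0.00 or 0.01 with only the groups compared, DESeq2 or no filter. Leaving out each library, values that changed sign ran, for hypoxia in siControl, from -0.01 to 0.10 (MAP1LC3B) and -0.02 to 0.06 (GABARAPL1); for hypoxia in siARNT, from -0.09 to 0.03 (FUNDC1), -0.28 to 0.04 (PINK1), -0.31 to 0.08 (SQSTM1), -0.01 to 0.09 (MAP1LC3B), -0.02 to 0.04 (GABARAPL1) and -0.26 to 0.09 (ULK1); for siARNT, from -0.04 to 0.03 in normoxia and -0.08 to 0.04 in hypoxia (MAP1LC3B) and -0.13 to 0.23 in normoxia (ULK1); and in the interaction from -0.19 to 0.21 (SQSTM1), -0.05 to 0.06 (MAP1LC3B), -0.05 to 0.03 (GABARAPL1) and -0.04 to 0.02 (BECN1).

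For siARNT in hypoxia the median of all genes was 0.10 with total count scaling. Among the 65 other pathway genes, GC offsets gave 36, 15, 25, 33 and 12 calls in the 5 comparisons against 16, 2, 14, 14 and 1. Over all genes they gave 42.6%, 21.6%, 32.5%, 46.1% and 18.5% against 25.3%, 4.09%, 20.2%, 29.1% and 4.69%. Of the listed genes with a call, ULK1 had the fewest reads in all (269 to 717 per library).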
